A study of Homo sapiens with 15 samples.

Results

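The genes described here are CDK inhibitors and other regulators of the G1 phase of the cell cycle, chosen by name as 10 of the 61552 Ensembl genes in the count table. They are the Cip/Kip inhibitors CDKN1A, CDKN1B and CDKN1C, the INK4 inhibitors CDKN2B, CDKN2C and CDKN2D, the D-type cyclins CCND2 and CCND3, the kinase CDK6 and the pocket protein gene RBL2. All 10 symbols were found in the table, and 9 of them passed the filter on low counts. CCND2 did not pass it.

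The RNA came from MDA-MB-468, an established basal-like breast cancer cell line with very high EGFR that is known to lack RB1. In the drug experiment the cells were serum starved for 12 h and given 10 ng/mL EGF, either alone (EGF) or with 10 µM cSNX1.3 or 15 µM erlotinib for 12 h. cSNX1.3 is a peptide reported to block binding of EGFR to Sorting Nexin 1 and so to reduce EGFR in the nucleus. Erlotinib inhibits the EGFR tyrosine kinase. In the line experiment the cells carried an IPTG-inducible lentiviral shRNA against endogenous EGFR and an introduced EGFR-GFP that was wildtype (WT, labelled shEGFR-WT) or had 2 arginines and 1 lysine of the nuclear localization sequence changed to aspartic acid (ΔNLS, labelled shEGFR-NLS). Both lines were given EGF, at a dose that is not stated, and whether each line was a clone or a pool is not stated either. Each of the 5 groups had 3 replicates, which the labels do not describe as separate cultures, so p-values measure the spread between these samples, which may be technical. Differences between the drug experiment and the line experiment in level cannot be told apart from differences in cells and handling.

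Progress through G1 generally depends on D-type cyclins that bind and activate CDK4 and CDK6. Whether it does so in these cells, which are known to lack RB1, was not tested. INK4 proteins bind CDK4 and CDK6 and keep the cyclins away, whereas Cip/Kip proteins act on cyclin-CDK complexes more widely, above all those of CDK2. The active kinases phosphorylate the pocket proteins RB1, RBL1 (p107) and RBL2 (p130). RBL2 joins E2F4 and the MuvB proteins in the DREAM complex, which represses cell cycle genes in quiescent cells. EGFR signaling through ERK is known to raise D cyclin expression, and FOXO factors, which are held inactive by AKT signaling, are known to act on CDKN1B and RBL2.

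The sequences below are the 250 bases before a start site of the 4 members that rose together with erlotinib, CDKN2B, CDKN2C, CDKN1B and RBL2, and of CDKN2D, which rose with CDKN2C in the ΔNLS line. They were taken from RefSeq (GRCh38.p14), which gave start sites for 8 of the 10 members here. For CDKN2C 1 of 3 listed start sites is shown and for RBL2 1 of 2, and each sequence is written 5′ to 3′ on the strand of the gene. Capitals mark matches, on either strand, to GGGCGG (an Sp1 motif), CACGTG (an E-box) or TTTNNCGC (an E2F motif). The windows lie at chr9:22009306-22009555 (minus strand) for CDKN2B, chr1:50969995-50970244 (plus) for CDKN2C, chr12:12717118-12717367 (plus) for CDKN1B, chr16:53434221-53434470 (plus) for RBL2 and chr19:10568980-10569229 (minus) for CDKN2D.
CDKN2B: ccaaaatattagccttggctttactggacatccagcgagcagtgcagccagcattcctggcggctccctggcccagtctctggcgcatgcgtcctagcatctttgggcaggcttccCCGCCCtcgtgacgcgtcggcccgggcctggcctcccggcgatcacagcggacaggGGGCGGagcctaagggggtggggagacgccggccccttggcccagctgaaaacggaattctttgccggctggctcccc
CDKN2C: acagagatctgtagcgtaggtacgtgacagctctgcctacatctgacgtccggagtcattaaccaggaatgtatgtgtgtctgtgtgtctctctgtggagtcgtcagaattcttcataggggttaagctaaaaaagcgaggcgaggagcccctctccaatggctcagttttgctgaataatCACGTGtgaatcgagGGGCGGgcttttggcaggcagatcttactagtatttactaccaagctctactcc
CDKN1B: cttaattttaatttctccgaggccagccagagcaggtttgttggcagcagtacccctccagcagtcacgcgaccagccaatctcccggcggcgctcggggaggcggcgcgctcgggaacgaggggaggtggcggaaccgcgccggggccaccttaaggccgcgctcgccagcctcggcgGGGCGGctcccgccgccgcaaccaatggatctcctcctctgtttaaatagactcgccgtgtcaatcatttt
RBL2: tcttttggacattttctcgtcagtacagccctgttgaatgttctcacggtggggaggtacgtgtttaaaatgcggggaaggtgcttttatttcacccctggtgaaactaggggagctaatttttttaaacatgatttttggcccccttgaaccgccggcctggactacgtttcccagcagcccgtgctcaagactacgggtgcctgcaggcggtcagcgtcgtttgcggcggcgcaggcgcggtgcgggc
CDKN2D: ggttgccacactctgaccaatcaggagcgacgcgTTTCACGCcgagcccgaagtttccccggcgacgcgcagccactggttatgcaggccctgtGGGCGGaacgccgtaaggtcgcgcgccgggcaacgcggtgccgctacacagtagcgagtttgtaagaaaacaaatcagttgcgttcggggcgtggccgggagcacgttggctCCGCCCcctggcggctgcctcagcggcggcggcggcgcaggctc

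The windows of CDKN2B and CDKN2D held 2 matches each to GGGCGG, those of CDKN2C and CDKN1B 1 match each, and that of RBL2 none, where 42.6% of the 35116 RefSeq windows of the same length held at least 1. The other CDKN2C windows, which are not shown, held 0 and 5 such matches. CACGTG was found in the CDKN2C window, 69 bases before the start, and in 6.34% of all windows. TTTNNCGC was found in the CDKN2D window, 216 bases before the start, and in 5.92% of all windows. No match was found in these 5 windows to the FOXO motif GTAAACA (2.98% of all windows), the CHR motif TTTGAA (13.3%), the AP-1 motif TGANTCA (6.57%) or the SMAD motif GTCTAGAC (0.182%), all searched on both strands. GC content was 66.4% for CDKN2B, 48.8% for CDKN2C, 64.4% for CDKN1B, 55.2% for RBL2 and 67.6% for CDKN2D. A match is a string of letters and not a measured site.

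Counts on genes summed to between 22915676 and 35900649 per library, and the 9 members with reads had between 68 and 6021 counts in a library. Levels below are in CPM, the usual per-library scaling of counts to a common total, with the TMM factors of all 15 libraries. EGFR, the targeted gene, was at 1424, 1146 and 1450 CPM in the WT line and 1688, 1746 and 1746 CPM in the ΔNLS line, against 4318 to 4963 CPM in the EGF libraries. Reads of the introduced EGFR count to the same gene, so these values do not check the knockdown or the mutation. The keratins KRT5, KRT17 and KRT18, EPCAM and CDH1 were expressed in all groups. Of 9 markers of other cell types, PGR was at 0 in all libraries, PTPRC and CD3E had at most 7 and 2 counts in a library, and the 9 together summed to between 20.2 and 28.4 CPM. Of the 4 of these that were tested, VWF (0.681 CPM with erlotinib) rose and COL1A1 fell with erlotinib, ESR1 rose and COL1A1 fell in the ΔNLS line, and none was called with cSNX1.3 by edgeR or DESeq2 (2 at an unadjusted p under 0.05). Of 7 markers of the line, which also include EGFR and KRT6B, 4 fell and 1 rose with erlotinib. Their log2 fold changes there had a median of -1.14 and ran from -3.14 to 0.47. With cSNX1.3 2 rose (median 0.33, from -0.13 to 0.94), and in the ΔNLS line 4 fell and 1 rose (median -0.32, from -0.74 to 0.37). The marker that rose in the ΔNLS line was EGFR itself (log2 fold change 0.37 against the WT line). An effect of the mutation therefore cannot be told apart from one of the EGFR level or of the line. The part of these marker changes in the values below was not tested.

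With erlotinib, 7 of the 9 members tested passed edgeR's quasi-likelihood test with a Benjamini-Hochberg adjusted p under 0.05 (are called, below), where 44.0% of the 15738 genes tested were called. CDKN2B, CDKN2C, RBL2 and CDKN1B rose and CCND3, CDK6 and CDKN1A fell, beside 22.8% of all genes that rose and 21.2% that fell. With cSNX1.3, 2 members were called, CDK6 higher and CDKN2C lower, where 6.07% of all genes were called (3.38% higher and 2.69% lower). In the ΔNLS line, 4 members were called, CDKN2D, CDKN2C and CDKN1A higher and CDKN2B lower, where 41.4% of 15805 genes were called (20.4% higher, 21% lower). The absolute log2 fold changes of the 9 members had medians of 0.43 with erlotinib, 0.23 with cSNX1.3 and 0.25 for ΔNLS vs. WT, against 0.34, 0.16 and 0.26 over all genes tested. Both drugs were compared with the same 3 EGF libraries, so their values are not independent of each other. The EGF group was given no control peptide, so an effect of cSNX1.3 itself cannot be told apart from one of adding a peptide.

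**Figure D1:**
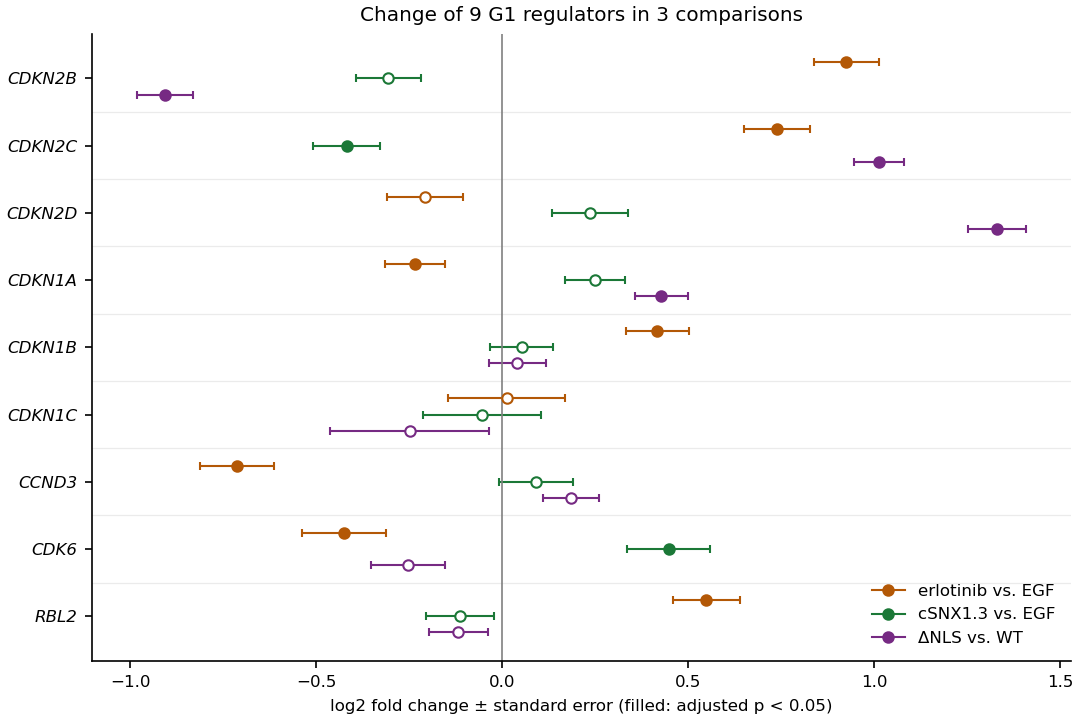
Log2 fold change (x axis) of the 9 members tested (y axis) in erlotinib vs. EGF, cSNX1.3 vs. EGF and ΔNLS vs. WT, with the standard error of the fit as the bar and filled points where the adjusted p was under 0.05. CDKN2B lay at 0.92 with erlotinib and at -0.91 for ΔNLS vs. WT, and CDKN2D at 1.33 for ΔNLS vs. WT.

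Among the INK4 genes, CDKN2B (ENSG00000147883, chr9:22002903-22009305, minus strand, GRCh38) encodes p15INK4b, an inhibitor of CDK4 and CDK6 best known as a target of TGF-beta. It was at 52.0, 47.0 and 47.7 CPM with EGF, 36.4, 40.8 and 41.2 CPM with cSNX1.3 and 92.8, 93.3 and 90.4 CPM with erlotinib. The erlotinib libraries lay above, and the cSNX1.3 libraries below, all EGF libraries. With erlotinib CDKN2B rose 1.90-fold (log2 fold change 0.92, standard error 0.09, adjusted p = 5.34e-07). With cSNX1.3 the log2 fold change was -0.31 (standard error 0.09, adjusted p = 0.0507), which missed the threshold. It passed with DESeq2 (adjusted p = 0.0197), in a fit of all 15 libraries (0.0156), with offsets for GC content and length (0.0411), with at least 10 counts required in every library (0.0466) and without EGF replicate 2 (0.0488).

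In the line experiment CDKN2B was at 61.6, 63.5 and 63.6 CPM in the WT line and 31.6, 32.6 and 36.5 CPM in the ΔNLS line, with no overlap. It fell by 0.91 on the log2 scale in the ΔNLS line (standard error 0.08, adjusted p = 9.67e-08), or 1.88-fold. In the order of group means, ΔNLS (33.6 CPM) and cSNX1.3 (39.5 CPM) were lowest and their libraries overlapped, and EGF (48.9 CPM), WT (62.9 CPM) and erlotinib (92.2 CPM) followed without overlap. The genes most like CDKN2B over the 15 libraries by Pearson's r of log2 CPM, among 13061 genes, were LRATD1 (r = 0.978), H2AC6 (0.972) and DUXAP8 (0.971). These values rest on 5 groups of 3 libraries that share group, depth and handling, and they are descriptive.

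CDKN2C (ENSG00000123080, chr1:50960745-50974634, plus strand) encodes p18INK4c, which binds CDK6 and CDK4. It was at 55.7, 58.7 and 55.5 CPM with EGF, 42.7, 44.2 and 40.0 CPM with cSNX1.3 and 101, 83.9 and 96.5 CPM with erlotinib. The 3 groups did not overlap. CDKN2C rose with erlotinib (log2 fold change 0.74, standard error 0.09, adjusted p = 7.11e-06) and fell by 0.42 on the log2 scale with cSNX1.3 (standard error 0.09, adjusted p = 0.00923). The cSNX1.3 call was lost without cSNX replicate 3 (adjusted p = 0.0535).

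In the WT line CDKN2C was at 80.3, 82.7 and 81.1 CPM and in the ΔNLS line at 174, 155 and 163 CPM. Every ΔNLS library was above every library of the other 4 groups. The log2 fold change for ΔNLS vs. WT was 1.01 (standard error 0.07, adjusted p = 7.48e-09), a 2.02-fold rise. CDKN2C was the only member whose 5 groups were all apart from their neighbours in the order of means, which ran cSNX1.3 (42.3 CPM), EGF (56.7), WT (81.4), erlotinib (93.8) and ΔNLS (164).

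CDKN2D (ENSG00000129355, chr19:10566460-10569059, minus strand) encodes p19INK4d, a CDK4 and CDK6 inhibitor whose RNA is known to be highest in S phase and G2. It was at 47.1, 50.1 and 42.6 CPM with EGF, 52.8, 58.8 and 52.6 CPM with cSNX1.3 and 43.4, 34.4 and 42.3 CPM with erlotinib. The cSNX1.3 libraries lay above the EGF libraries, and the erlotinib libraries overlapped them. Neither difference passed the test: the log2 fold change was 0.23 with cSNX1.3 (adjusted p = 0.210) and -0.21 with erlotinib (adjusted p = 0.110), each with a standard error of 0.10.

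CDKN2D showed the largest log2 fold change of the members in the line experiment. It was at 20.5, 19.7 and 20.8 CPM in the WT line and 50.5, 47.9 and 54.8 CPM in the ΔNLS line, a 2.51-fold rise (log2 fold change 1.33, standard error 0.08, adjusted p = 1.99e-09). The WT line was lowest of the 5 groups and apart from the rest, while erlotinib, EGF, ΔNLS and cSNX1.3 overlapped with their neighbours in the order of means. The genes most like CDKN2D over the 15 libraries were MUS81 (r = 0.972), NTN1 (0.963) and EPHB4 (0.948).

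Levels of different genes were set side by side per kilobase of exon, with all annotated exons of a gene as its length. These lengths exceed those of the canonical transcripts, most of all for CDKN1B (9255 against 2411 bases), CDKN2C (3018 against 995) and CCND3 (5761 against 2026), so shares within a family depend on this choice, while the change of a gene between groups does not. On this scale the 3 INK4 members together summed to 62.0 ± 3.02 CPM per kb with EGF (SD, n = 3), 60.2 ± 3.18 with cSNX1.3, 80.7 ± 6.0 with erlotinib, 56.2 ± 0.498 in the WT line and 96.7 ± 4.50 in the ΔNLS line. The share of CDKN2D was 49.9% ± 1.66 in the EGF libraries, 60.3% ± 0.726 in those of cSNX1.3 and 32.9% ± 1.69 in those of erlotinib. CDKN2B held 28.0% ± 0.264 in the WT line and 8.69% ± 0.625 in the ΔNLS line, and CDKN2C 48.0% ± 0.552 and 56.2% ± 1.91. Per kilobase of the canonical transcript CDKN2C, not CDKN2D, held the largest share with EGF (55.7%, against 31.9% for CDKN2D) and with cSNX1.3 (46.7% against 42.1%). The sum was then 102 CPM per kb with EGF, 91.2 with cSNX1.3, 146 with erlotinib, 112 in the WT line and 209 in the ΔNLS line. CDKN2A, the other INK4 gene, is no member and had a mean of 198 to 323 CPM over the groups. It fell in the ΔNLS line (log2 fold change -0.52, adjusted p = 4.91e-05) and was not called with either drug (-0.28 with erlotinib, adjusted p = 0.151, and 0.06 with cSNX1.3, adjusted p = 0.894). Counts on CDKN2A cannot separate the transcripts of p16INK4a from those of ARF. With CDKN2A added, the INK4 sum per kilobase of all annotated exons was 125 ± 11.7 with EGF and 125 ± 9.0 with cSNX1.3 (SD, n = 3). It was 132 ± 17.8 with erlotinib, 139 ± 5.96 in the WT line and 155 ± 7.89 in the ΔNLS line. Per kilobase of the canonical transcript this sum was 351 with EGF, 349 with cSNX1.3, 349 with erlotinib, 443 in the WT line and 441 in the ΔNLS line.

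**Figure D2:**
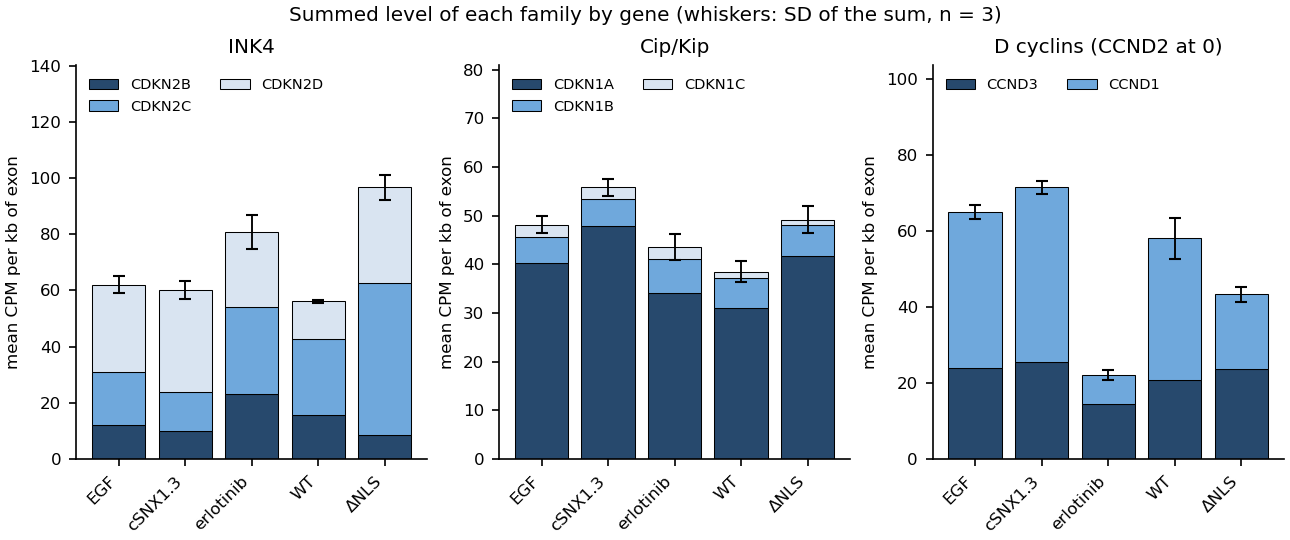
Mean level in CPM per kb of all annotated exons (y axis) in the 5 groups (x axis), stacked by gene for the INK4 members, the Cip/Kip members and the D cyclins including CCND1, with whiskers for the SD of the family's sum over 3 libraries. The sum of the INK4 members, which leaves out CDKN2A, was highest in the ΔNLS line at 96.7 CPM per kb. CDKN1A made up most of the Cip/Kip sum in every group, and the D cyclin sum was lowest with erlotinib at 22.1 CPM per kb.

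Among the Cip/Kip genes, CDKN1A (ENSG00000124762, chr6:36676460-36687337, plus strand) encodes p21, an inhibitor of CDK2. It had the highest level of the members per kilobase of all annotated exons, with 39.0 CPM per kb over all libraries, but not per kilobase of the canonical transcript, where CDKN2C (88.1) and CCND3 (61.7) were above it (55.3). CDKN1A was at 118, 127 and 118 CPM with EGF, 146, 146 and 139 CPM with cSNX1.3 and 108, 96.0 and 102 CPM with erlotinib. The 3 groups did not overlap, with cSNX1.3 highest and erlotinib lowest. With erlotinib CDKN1A fell by 0.24 on the log2 scale (standard error 0.08, adjusted p = 0.0264), a call lost when any of EGF replicates 1, 2 and 3 or ERL replicates 2 and 3 was left out (adjusted p between 0.0562 and 0.0732) and held without ERL replicate 1 (0.0191). It was also lost with no filter on low counts (-0.25, adjusted p = 0.0567) and with offsets for GC content and length, which brought the value to -0.13 (0.0861). With cSNX1.3 the log2 fold change was 0.25 (standard error 0.08, adjusted p = 0.0827), which passed only with DESeq2 (0.0335), in the fit of all 15 libraries (0.0430) and with the offsets (0.0185).

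CDKN1A was at 88.2, 95.0 and 96.2 CPM in the WT line and 131, 117 and 128 CPM in the ΔNLS line. The groups were apart, and CDKN1A rose in the ΔNLS line (log2 fold change 0.43, standard error 0.07, adjusted p = 0.000142). Its means over the groups ran from 93.1 CPM in the WT line to 144 CPM with cSNX1.3, with the WT and erlotinib libraries overlapping at the lower end and those of EGF and ΔNLS in the middle.

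CDKN1B (ENSG00000111276, chr12:12685498-12722369, plus strand) encodes p27, an inhibitor of cyclin E-CDK2 that is controlled largely through the stability of its protein, which was not measured here. It was at 51.7, 48.5 and 48.3 CPM with EGF, 53.2, 52.8 and 47.7 CPM with cSNX1.3 and 69.0, 64.5 and 63.3 CPM with erlotinib. The erlotinib libraries were above all libraries of the other 4 groups, which overlapped with their neighbours in the order of means. CDKN1B rose with erlotinib (log2 fold change 0.42, standard error 0.08, adjusted p = 0.000937). The log2 fold change was 0.05 with cSNX1.3 (adjusted p = 0.806) and 0.04 for ΔNLS vs. WT (adjusted p = 0.704), where the lines were at 52.8 to 59.8 and 55.9 to 62.8 CPM.

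CDKN1C (ENSG00000129757, chr11:2883213-2885775, minus strand) encodes p57, an imprinted inhibitor, and was the lowest member with reads, at 68 to 245 counts per library. It was at 5.50, 6.61 and 6.07 CPM with EGF, 6.0, 5.68 and 5.80 CPM with cSNX1.3 and 7.26, 4.75 and 6.10 CPM with erlotinib, with overlap throughout. The WT line held 2.25, 4.24 and 2.82 CPM and the ΔNLS line 2.97, 2.16 and 2.7 CPM. No comparison of CDKN1C passed the test, and with standard errors of 0.16 to 0.21 in the 3 comparisons its changes were the least precisely measured. The lines, which overlapped each other, were both below all drug libraries.

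CDKN1A made up 83.8% ± 0.404 of the Cip/Kip sum per kilobase with EGF (SD, n = 3), 85.9% ± 0.215 with cSNX1.3, 78.2% ± 0.505 with erlotinib, 80.8% ± 1.13 in the WT line and 85.0% ± 0.693 in the ΔNLS line. CDKN1B held 11.1% with EGF and 16.3% with erlotinib. Per kilobase of the canonical transcript these shares of CDKN1B were 25.3% and 34.6%, and CDKN1A held 61.1% to 73.4% over the groups.

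Among the D cyclins, CCND2 (ENSG00000118971, chr12:4269771-4305353, plus strand) had 0 counts in all 15 libraries, which together held 429882201 counts. In a single library a count of 0 allows a level of up to 0.0830 to 0.137 CPM (3 counts), for counting error only. The genes CCND2-AS1 and ENSG00000285901, whose exons overlap those of CCND2, were at 0 as well. No change of CCND2 could be measured at this depth.

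CCND3 (ENSG00000112576, chr6:41934934-42050357, minus strand) encodes cyclin D3. It was at 137, 152 and 125 CPM with EGF, 162, 138 and 140 CPM with cSNX1.3 and 91.3, 74.8 and 84.6 CPM with erlotinib. The erlotinib libraries were below all libraries of the other 4 groups. CCND3 fell by 0.71 on the log2 scale with erlotinib (standard error 0.10, adjusted p = 3.34e-05), or 1.64-fold. With cSNX1.3 the groups overlapped (log2 fold change 0.09, adjusted p = 0.683). In the lines, CCND3 was at 116, 123 and 121 CPM with WT and 151, 124 and 135 CPM with ΔNLS, which did not overlap, and the log2 fold change of 0.18 missed the threshold (standard error 0.08, adjusted p = 0.0600). It passed without WT replicate 2 (adjusted p = 0.0344) or ΔNLS replicate 2 (0.0203), and shrank to 0.096 with offsets for GC content and length (0.240) and to 0.11 without ΔNLS replicate 1 (0.243).

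CCND1, which is no member, is the other D cyclin of these cells and gives the scale. Its log2 fold change was -2.42 with erlotinib (adjusted p = 3.76e-11), 0.17 with cSNX1.3 (adjusted p = 0.301) and -0.92 for ΔNLS vs. WT (adjusted p = 6.13e-07). Per kilobase of exon CCND3 made up 36.9% ± 3.42 of the D cyclin sum with EGF (SD, n = 3), 35.6% ± 2.7 with cSNX1.3, 65.4% ± 3.20 with erlotinib, 36.1% ± 4.0 in the WT line and 54.6% ± 2.89 in the ΔNLS line. The sum itself was 64.9 ± 1.83 CPM per kb with EGF and 22.1 ± 1.21 with erlotinib. Per kilobase of the canonical transcript CCND3 held 59.6% with EGF and 82.7% with erlotinib, so that it and not CCND1 was the larger part in all 5 groups.

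CDK6 (ENSG00000105810, chr7:92604921-92836573, minus strand) encodes a D cyclin-dependent kinase. It was at 29.7, 25.5 and 30.5 CPM with EGF, 35.6, 38.3 and 42.7 CPM with cSNX1.3 and 19.4, 23.0 and 21.2 CPM with erlotinib, and these groups did not overlap. With cSNX1.3 CDK6 rose (log2 fold change 0.45, standard error 0.11, adjusted p = 0.0228), and with erlotinib it fell by 0.43 (standard error 0.11, adjusted p = 0.00588). The cSNX1.3 call was lost without EGF replicate 1 (adjusted p = 0.0655), EGF replicate 2 (0.0806), cSNX replicate 2 (0.0817) or cSNX replicate 3 (0.113), while the erlotinib call held in all 6 fits without a library.

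CDK6 was at 28.9, 26.1 and 33.1 CPM in the WT line and 22.0, 26.9 and 25.0 CPM in the ΔNLS line. The libraries overlapped, and the log2 fold change of -0.25 missed the threshold (standard error 0.10, adjusted p = 0.0503). It passed with DESeq2 size factors (adjusted p = 0.0499), with no filter (0.0216) and without WT replicate 2 (0.00878) or ΔNLS replicate 2 (0.0396), and shrank to -0.15 with offsets for GC content and length (0.138) and to -0.16 without WT replicate 3 (0.246). The cSNX1.3 group (38.9 CPM) was above and apart from the other 4 in the order of means, which overlapped with their neighbours. CDK6 was the minor kinase of the pair, at 6.14% to 11.1% of the sum of CDK4 and CDK6 per kilobase of all annotated exons and 3.98% to 7.35% per kilobase of the canonical transcript. The genes most like CDK6 over the 15 libraries were OSBPL3 (r = 0.961), EHBP1 (0.956) and KIAA1549L (0.950).

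RBL2 (ENSG00000103479, chr16:53433977-53491648, plus strand) encodes the pocket protein p130. It was at 69.3, 63.3 and 65.8 CPM with EGF, 57.5, 58.7 and 66.7 CPM with cSNX1.3 and 90.6, 101 and 96.3 CPM with erlotinib. The erlotinib libraries were above all libraries of the other groups. RBL2 rose with erlotinib (log2 fold change 0.55, standard error 0.09, adjusted p = 0.000158) and was not called with cSNX1.3 (-0.11, adjusted p = 0.549). In the lines it was at 81.5, 79.6 and 80.3 CPM with WT and 68.7, 83.1 and 70.4 CPM with ΔNLS, which overlapped (log2 fold change -0.12, adjusted p = 0.246). ΔNLS replicate 2 was the highest of these 6 libraries, and without it RBL2 was called lower (-0.21, adjusted p = 0.0377). The value moved the other way, to -0.063, without ΔNLS replicate 1 (adjusted p = 0.576) and to -0.058 with offsets for GC content and length (0.474).

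Exons of AKTIP, on the opposite strand, cover 7.51% of the exon length of RBL2, and reads there cannot be assigned by strand. AKTIP had log2 fold changes of 0.27 with erlotinib (adjusted p = 0.0116) and -0.36 for ΔNLS vs. WT (adjusted p = 0.000551), and its part in the RBL2 values was not tested. For CDKN2C, the opposite-strand lncRNA ENSG00000290102 covers 20.4% of the exon length in GENCODE and is not among the genes counted, so its reads, if any, could fall on CDKN2C, and its part in the CDKN2C values was not tested. The genes overlapping exons of CDKN1A (DINOL) and CDK6 (CDK6-AS1) had at most 3 and 5 counts in a library. Of the other pocket protein genes, RB1 had means of 1.93 to 3.20 CPM in the 5 groups, and RBL1 was not called in any of the 3 comparisons (0.07, -0.07 and 0.16 on the log2 scale). In bulk RNA a lower level can mean fewer cells with a transcript or less of it per cell, and these cannot be told apart for any member.

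**Figure D3:**
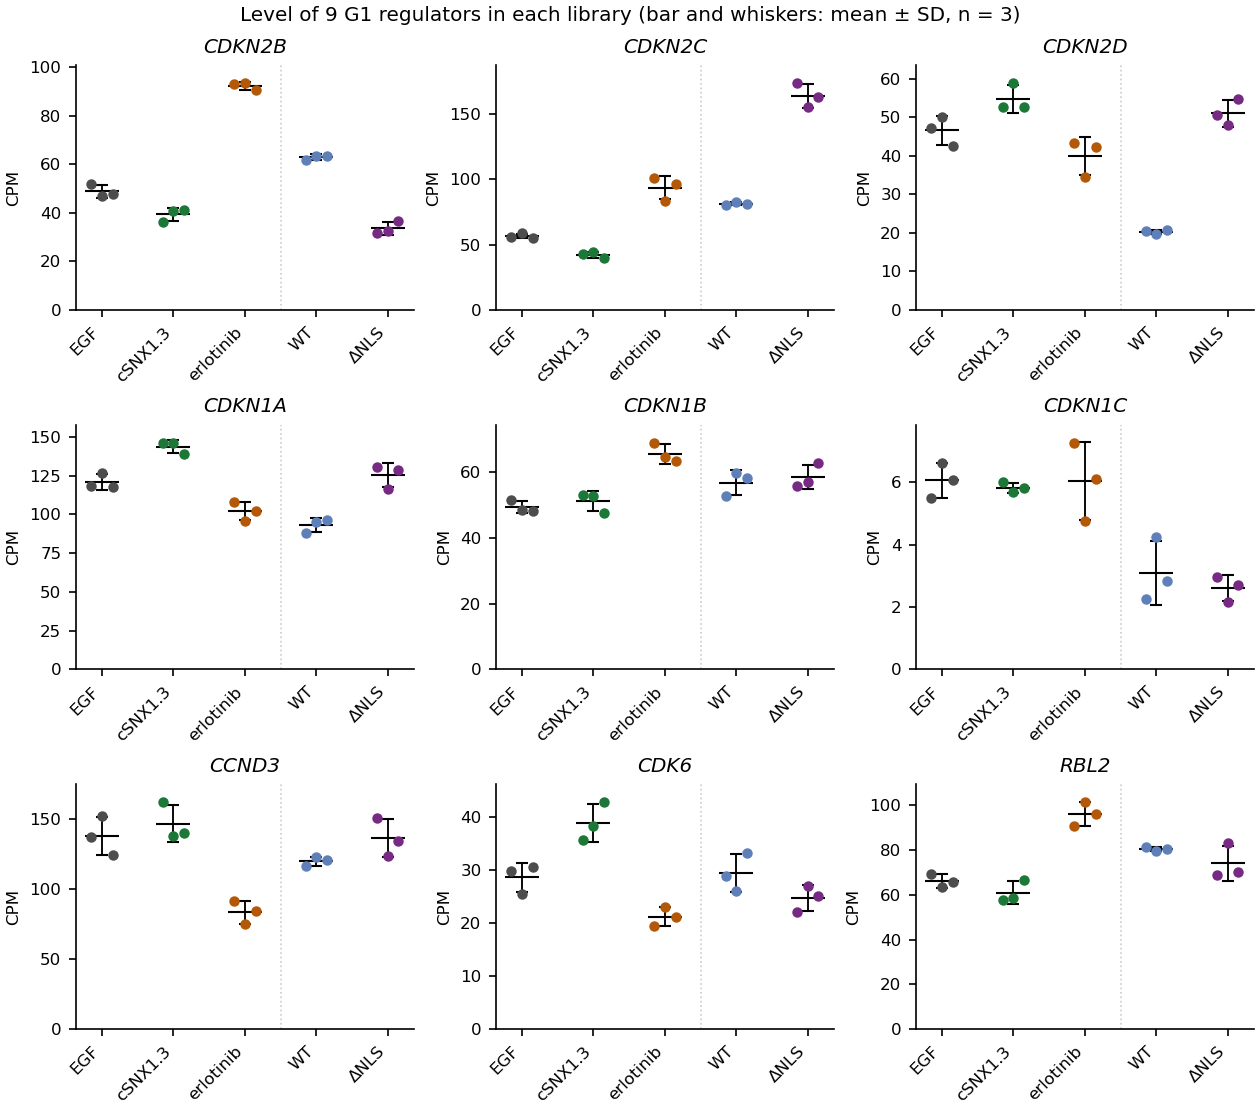
Level in CPM (y axis, starting at 0) of the 9 members with reads in each library of the 5 groups (x axis), with points for libraries and a bar with whiskers for the mean ± SD of 3 replicates. The dotted line divides the drug experiment from the line experiment. The erlotinib points stood above those of the other groups for CDKN2B, CDKN1B and RBL2 and below them for CCND3, and the ΔNLS points stood highest for CDKN2C.

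The drugs were also compared with each other directly. In cSNX1.3 vs. erlotinib, 8 of the 9 members were called, where 56.1% of the 15738 genes were called (27.6% higher and 28.5% lower with cSNX1.3), and the same number was called in each of the 15 alternative fits. CDKN2B (log2 fold change -1.23, standard error 0.09, adjusted p = 1.07e-08), CDKN2C (-1.16, adjusted p = 2.81e-08), RBL2 (-0.66) and CDKN1B (-0.36) were lower with cSNX1.3. CDK6 (0.87, adjusted p = 7.43e-06), CCND3 (0.80, adjusted p = 5.44e-06), CDKN1A (0.49) and CDKN2D (0.44, adjusted p = 0.00159) were higher. For all 8 the libraries of the drugs did not overlap. CDKN1C had a log2 fold change of -0.07 (standard error 0.16, adjusted p = 0.741). CDKN2B was 2.35-fold and CDKN2C 2.23-fold lower with cSNX1.3 than with erlotinib.

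ΔNLS and cSNX1.3 are both meant to keep EGFR from the nucleus, which was not measured in these libraries. The paper calls it probable that cSNX1.3 affects other protein interactions too. It also names possible effects in the lines that do not depend on EGFR. The difference between the effect of ΔNLS vs. WT and that of cSNX1.3 vs. EGF was tested as an interaction over all 15 libraries. For 4 of the 9 members the effects differed, where 23.1% of 16524 genes were called (11.3% with a higher and 11.8% with a lower ΔNLS effect). The ΔNLS effect was higher by 1.43 on the log2 scale for CDKN2C (standard error 0.11, adjusted p = 4.91e-09) and by 1.10 for CDKN2D (standard error 0.13, adjusted p = 2.17e-06). It was lower by 0.70 for CDK6 (log2 difference -0.70, standard error 0.15, adjusted p = 0.00175) and by 0.60 for CDKN2B (log2 difference -0.60, standard error 0.11, adjusted p = 0.000377). For CDKN1A the difference was 0.18 (standard error 0.11, adjusted p = 0.243), and for CDKN1B, RBL2, CCND3 and CDKN1C it was -0.01, 0.00, 0.10 and -0.19, none of which passed the test.

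Against the erlotinib effect, the ΔNLS effect differed for 7 members, where 44.7% of 16524 genes were called (22.6% with a higher and 22.1% with a lower ΔNLS effect). The differences in log2 were -1.82 for CDKN2B (adjusted p = 5.64e-11), 1.55 for CDKN2D (adjusted p = 9.13e-09), 0.91 for CCND3, 0.67 for CDKN1A, -0.66 for RBL2, -0.37 for CDKN1B (adjusted p = 0.0107) and 0.28 for CDKN2C (adjusted p = 0.0422). CDKN2C thus rose in both comparisons, and the call of a difference was lost in 10 of 12 fits without a library and held without ERL replicate 1 or ΔNLS replicate 2 (adjusted p between 0.0214 and 0.122). For CDK6 the difference was 0.18 (standard error 0.15, adjusted p = 0.356).

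**Figure D4:**
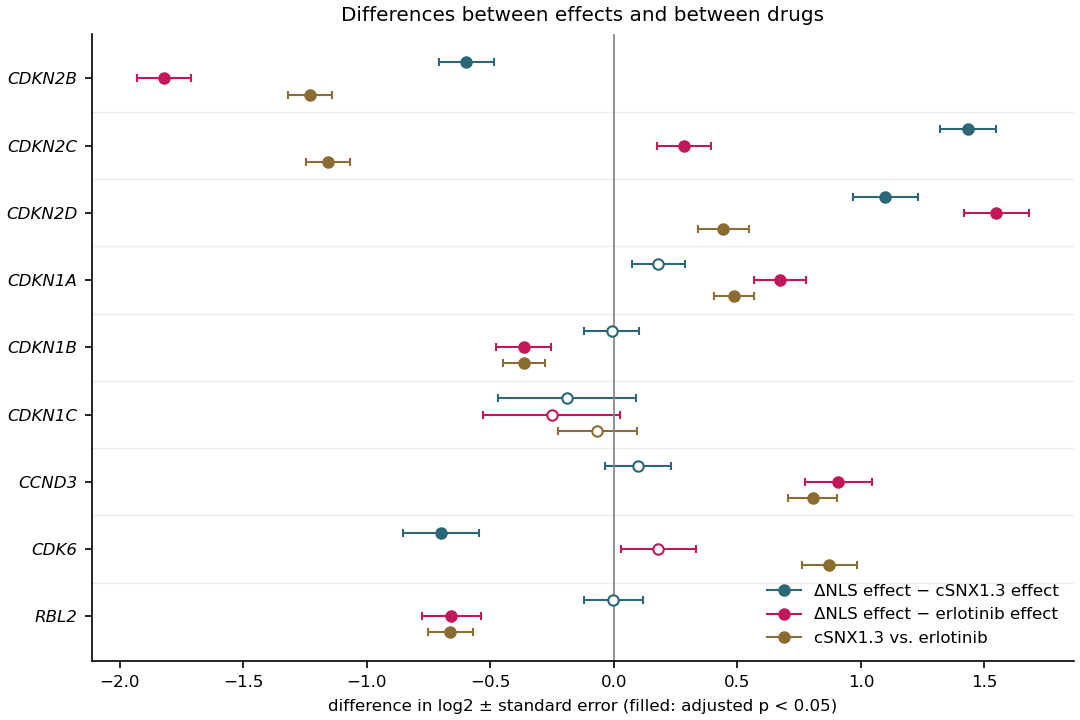
Difference on the log2 scale (x axis) for the 9 members (y axis) between the ΔNLS and cSNX1.3 effects, between the ΔNLS and erlotinib effects, and between cSNX1.3 and erlotinib, with standard errors as bars and filled points where the adjusted p was under 0.05. CDKN2B was below 0 in all 3, at -0.60, -1.82 and -1.23, and CDKN2D above 0 in all 3, at 1.10, 1.55 and 0.44.

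Lists of genes around the members, written from general knowledge, are described by counts and medians. The median of all genes tested was 0.01 with erlotinib, 0.00 with cSNX1.3 and 0.01 for ΔNLS vs. WT. Of all genes tested, 44.0% were called with erlotinib (22.8% higher and 21.2% lower), 6.07% with cSNX1.3 and 41.4% for ΔNLS vs. WT. The counts of each list are to be read beside these shares. Whether a list held more called genes than all genes tested was not tested. Of 22 other genes of the G1/S machinery, 2 rose and 9 fell with erlotinib (median log2 fold change -0.21). CCND1 fell the most, followed by CCNE1, which encodes cyclin E1 (-0.92), and CDC25A, the phosphatase that activates CDK2 (-0.84). With cSNX1.3 only E2F2 was called (-0.53, adjusted p = 0.00754). In the ΔNLS line 10 rose and 2 fell (median 0.18), with E2F8 (1.03) and E2F7 (0.89), atypical E2F repressors, highest and CCND1 and CDKN2A lower.

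Of 14 E2F-driven genes of S phase, 3 rose and 7 fell with erlotinib (median -0.27). The licensing factor CDC6 (-0.96) and the helicase subunit MCM6 (-0.71) were among those that fell. With cSNX1.3 2 fell by edgeR, 3 by DESeq2 and 4 at an unadjusted p under 0.05, and none rose by any of these (median -0.18), and RRM2, a subunit of ribonucleotide reductase, was 1 of those that fell (-0.34). In the ΔNLS line 9 rose and 1 fell (median 0.36), with the thymidine kinase TK1 (1.28), cyclin A2 (CCNA2, 0.99) and RRM2 (0.95) highest and MCM6 lower (-0.30).

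Of 11 genes listed for DREAM and MuvB, 2 rose and 4 fell with erlotinib (median -0.13), among them LIN37 (-0.48) and E2F4 (-0.45), which were lower. Not all of them are partners of RBL2, since the list also holds RBL1, MYBL2 and the kinase DYRK1A. E2F4, E2F5, TFDP1 and RBL1 also stand in the G1/S list. None was called with cSNX1.3 by edgeR or DESeq2, and 2 had an unadjusted p under 0.05. In the ΔNLS line 6 rose (5 with DESeq2) and none fell by either tool or at an unadjusted p under 0.05 (median 0.25), and MYBL2, which takes the place of p130 on MuvB in proliferating cells, had the largest value (1.38, adjusted p = 8.14e-10). Of 11 genes that act on the turnover of the p27 and p21 proteins, 1 rose and 3 fell with erlotinib (median -0.13), of which DTL, a substrate receptor for p21, fell the most (-0.60). DTL was the only one called with cSNX1.3 (-0.33). In the ΔNLS line 3 rose and 4 fell (median -0.12). CKS1B (1.01) and SKP2 (0.51), which together direct p27 to degradation, were among those that rose.

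The remaining lists hold targets of regulators that are known to act on members. Of 9 FOXO targets tested, 4 rose and 2 fell with erlotinib (median 0.28), led by PIK3IP1 (1.63), BCL2L11 (1.14) and BCL6 (0.79). With cSNX1.3, BCL2L11 fell (-0.45) and IRS2 rose (0.36). In the ΔNLS line 3 rose and 2 fell (median 0.25), with CITED2 (-0.92) and PIK3IP1 (-0.80) lower. Of 8 targets of TGF-beta and SMAD, the pathway of which CDKN2B is a classical target, 2 rose and 5 fell with erlotinib (median -0.72), among them LTBP2 (-1.86), PMEPA1 (-0.90) and SMAD7 (-0.86). With cSNX1.3 PMEPA1 (0.45) and SMURF1 (0.43) rose, and in the ΔNLS line 2 rose and 2 fell (median -0.13), PMEPA1 being lower (-0.40).

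**Figure D5:**
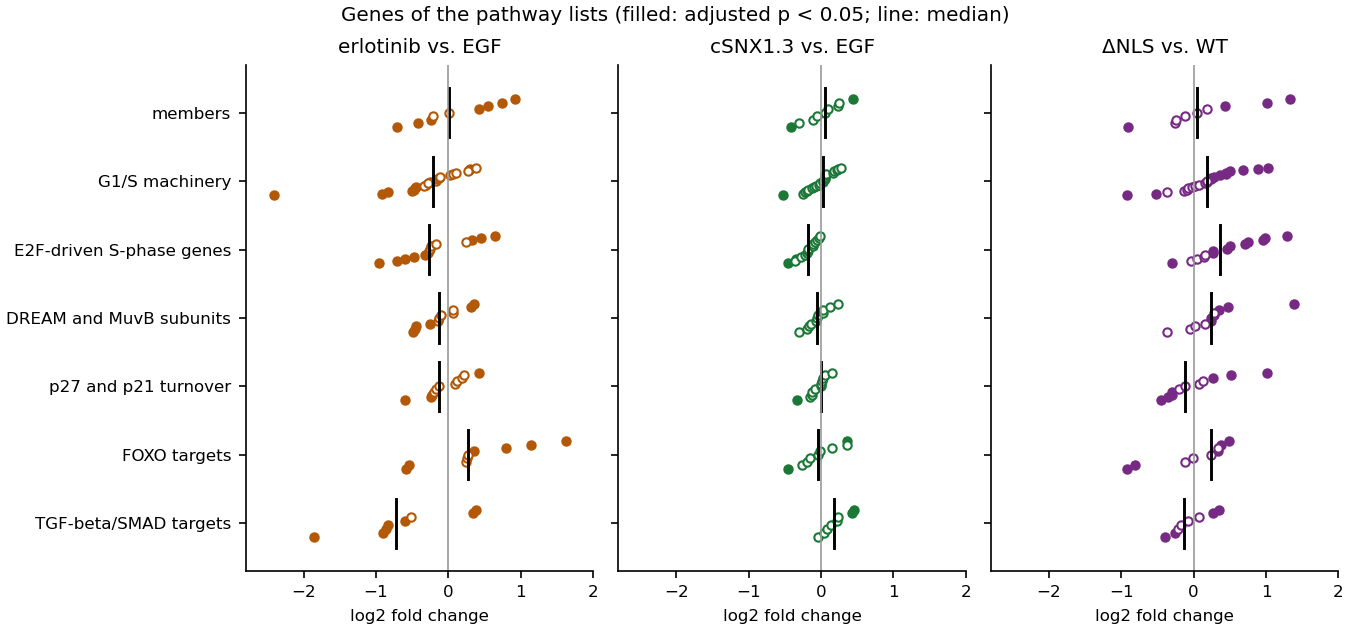
Log2 fold change (x axis) of the tested genes of the members and 6 lists (y axis) in the 3 comparisons, with filled points where the adjusted p was under 0.05 and a vertical line for the list's median. With erlotinib the targets of TGF-beta and SMAD had the lowest median at -0.72, and for ΔNLS vs. WT the S phase genes the highest at 0.36.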

How the data were processed

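Gene expression of MDA-MB-468 cells was measured by RNA-seq in 15 libraries, 3 for each of 5 groups named by the sample labels. The authors trimmed the reads with TrimGalore, aligned them with STAR to GRCh38, assigned read pairs to genes with featureCounts in its unstranded mode, and deposited the counts, which are raw and not normalized. Their annotation release is not given in the sources used here. Of 61552 gene IDs, 61399 matched GENCODE 44, which gave names, coordinates and exon lengths.

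Here edgeR 4.0.16 (R 4.3.3) was used with TMM scaling, filterByExpr by group and robust quasi-likelihood fits of the 9 drug libraries, of the 6 line libraries and, for differences between effects, of all 15. p-values were Benjamini-Hochberg adjusted over all genes tested, with a threshold of 0.05. The fit was tested on simulated data. CPM were computed on the TMM scale. Replicates of a group differed by more than sampling noise (chi-square per degree of freedom at least 2.69). Pearson's r for likeness used log2 of CPM with 0.1 added, for genes averaging 1 CPM or more. Alternatives were DESeq2 1.42.0 as the test or for size factors, no filter, at least 10 counts in every library, other sets of libraries, a threshold of 0.01, a block for the replicate number, and fits without each library in turn. Offsets for GC content and length, and the canonical transcript as a gene's length in place of all annotated exons, were chosen after seeing the data.

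The members and the gene lists were chosen with earlier results of these data known. Genes named are the members, EGFR, RB1, CCND1 and MYC, cell type markers, list genes, genes overlapping a member, and the 3 genes most like the member with the largest change in each main comparison. Some genes and 1 list covered by this rule are not reported here.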

Additional observations from a re-analysis of the deposited data

Results flagged for a closer look

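The ΔNLS vs. WT effect differed from the cSNX1.3 vs. EGF effect for 4 of the 9 members tested by edgeR's interaction test at a Benjamini-Hochberg adjusted p under 0.05, where 23.1% of 16524 genes were called. The ΔNLS effect minus the cSNX1.3 effect was 1.43 on the log2 scale for CDKN2C, which rose in the ΔNLS line and fell with cSNX1.3, and 1.10 for CDKN2D, which rose in the ΔNLS line and was not called with cSNX1.3. It was -0.70 for CDK6, which rose with cSNX1.3 and was not called in the ΔNLS line, and -0.60 for CDKN2B, which fell in the ΔNLS line and was not called with cSNX1.3. The log2 fold changes not called were 0.23 for CDKN2D (adjusted p = 0.210) and -0.31 for CDKN2B (0.0507) with cSNX1.3, and -0.25 for CDK6 in the ΔNLS line (0.0503). CDKN2B was thus lower in both comparisons, and DESeq2 called it with cSNX1.3 (adjusted p = 0.0197). For CDKN2D the WT line (mean 20.3 CPM) was the group apart from the rest. The ΔNLS libraries (51.1 CPM) overlapped those of EGF (46.6 CPM) and cSNX1.3 (54.7 CPM). All 4 calls of a difference between the effects held in each of the 16 alternative fits. The effects were measured in different cells. The part of the knockdown, of the introduced EGFR and of the higher EGFR level in the ΔNLS line in these differences was not tested.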

How the results depend on the processing

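The number of genes called in cSNX1.3 vs. EGF (956) was the most dependent on the processing: 1603 with offsets for GC content and length, 1444 with all 15 libraries in one fit, 470 at an adjusted p under 0.01, and 526 to 892 when a library was left out. The members called there, 2 as reported, were 4 with DESeq2, with the offsets and with all 15 libraries, 1 at an adjusted p under 0.01, and 0 to 2 when a library was left out. For ΔNLS vs. WT, 4 to 7 members were called when a library was left out, 7 of them without shEGFR-NLS replicate 2, where CCND3, CDK6 and RBL2 were added. The cause was not tested. Signs reversed only where a member was not called in the comparison concerned. CDKN1C in erlotinib vs. EGF was at -0.0042 with no filter, -0.0010 with the replicate block and -0.0031 with DESeq2, and between -0.14 and 0.15 without a library. Without a library, CDKN1B (-0.014 to 0.079) and CDKN1C (-0.43 to 0.038) in ΔNLS vs. WT, CDKN1C in cSNX1.3 vs. erlotinib (-0.21 to 0.087), CDKN1B (-0.060 to 0.028), RBL2 (-0.10 to 0.068) and CDKN1C (-0.37 to 0.094) in the difference of the ΔNLS and cSNX1.3 effects, and CDKN1C in that of the ΔNLS and erlotinib effects (-0.43 to 0.036) crossed 0. The replicate numbers did not pair the samples throughout (correlations of deviations from -0.514 to 0.541). Replicate 3 matched replicate 3 best in erlotinib vs. EGF (0.217), cSNX1.3 vs. EGF (0.541) and cSNX1.3 vs. erlotinib (0.237). Replicate 1 matched replicate 1 best in cSNX1.3 vs. erlotinib (0.227), and all other libraries matched another number best. With 3 libraries in a group, this check cannot decide whether samples of the same number were handled together. With the replicate number as a block, 6707 genes were called for erlotinib, 841 for cSNX1.3, 5766 for ΔNLS vs. WT, 8643 for cSNX1.3 vs. erlotinib, and 3922 and 7526 for the differences of the ΔNLS effect from the cSNX1.3 and erlotinib effects. The members called under the block numbered 7, 2, 4, 8, 4 and 7. Shares within a family depend on the gene length used, and a second length was added after seeing the data. Depth limits CDKN1C, at 68 to 245 counts, and CCND2, at 0.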

Other observations

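MYC, a transcription factor known to repress CDKN2B and CDKN1A, was at 83.8, 73.7 and 80.0 CPM with erlotinib and 152, 137 and 136 CPM with EGF, and it fell by 0.83 on the log2 scale (edgeR, Benjamini-Hochberg adjusted p = 1.50e-06). MYC was not called with cSNX1.3 (-0.06, adjusted p = 0.765) or in the ΔNLS line (0.12, adjusted p = 0.204). RB1 was called higher in the ΔNLS line (log2 fold change 0.50, adjusted p = 0.0394) at 2.74, 2.80 and 4.06 CPM, against 2.05, 2.15 and 2.49 CPM in the WT line. These levels are low, the cells are known to lack RB1, and 1 ΔNLS library (4.06 CPM) stood apart from the other ΔNLS libraries. Where the reads on RB1 come from was not tested.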
